A study of Mus musculus with 4 samples.

Results

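The retinoid genes described here were 9 genes of vitamin A handling, taken by name from the 47729 genes of the expression table. They were Stra6, Rbp4, Crabp1, Crabp2, Aldh1a1, Aldh1a2, Aldh1a3, Cyp26b1 and Rarb, which carry retinol into cells, bind its products, make and clear retinoic acid, and respond to it. The list was drawn up with the difference between the groups already known for some of them, so their values are given as a description, with no test. RNA was sequenced from whole tumors grown in C57BL/6 mice from Lewis lung carcinoma (LLC) cells, a mouse lung tumor line of that strain grafted under the skin of the back. The cells of the LLC-Chem group carried a pEFIN plasmid for the chemoattractant chemerin. The plasmid encodes residues 1 to 157, a form that is active without further cleavage. The labels call the cells of the LLC group wild type. The study also describes cells with the empty vector, and whether the LLC pools came from these is not given in the sources used here. If they did not, chemerin cannot be told apart from transfection and selection. In either case it cannot be told apart from differences between clones, since individual clones were collected after selection. Rarres2, the mouse gene of chemerin, did not bear out this difference, with 102 and 98.2 RPM in LLC, against 106 RPM in both pools of LLC-Chem (log2 difference 0.08, adjusted p = 0.541 by limma). Both LLC-Chem pools lay above both LLC pools, by a gap of 1.03-fold, without passing the test. Whether transcripts of the plasmid were counted under Rarres2 was not tested, so LLC and LLC-Chem stand throughout for the pools labelled so, and every direction given rests on those labels. RPM is the unit in which each library is scaled to 1000000 reads. Tumors of both groups were taken on day 5, when host vessels, fibroblasts and leukocytes make up part of the tissue. Each group was sequenced as 2 pools of 3 tumors. Unless stated otherwise the mice were 6 to 10 weeks old, and the number of clones of transfected cells behind the grafts is not given in the sources used here.

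Vitamin A circulates as retinol bound to the carrier RBP4, and STRA6 is the membrane receptor that takes retinol from it. Inside the cell retinol is oxidized to retinal and then, by the ALDH1A enzymes, to retinoic acid, which CRABP1 and CRABP2 bind in the cytoplasm and the CYP26 enzymes degrade. Retinoic acid acts through the nuclear receptors RARα, RARβ and RARγ, paired with RXR, and the gene of RARβ is itself a classical target of the pathway.

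The libraries held 28470000 to 33990000 reads, as estimated from the steps in the deposited values, so that 3 reads, the smallest amount taken as detected, stood for 0.0883 to 0.105 RPM. This limit covers counting error only. Pools of a group differed by far more than counting error, the chi-square per gene being 75.8 for LLC and 30.9 for LLC-Chem. The lung genes Nkx2-1 and Sftpc were at 0 and at no more than 0.1 RPM in every pool. The epithelial genes ranged widely, with Epcam at no more than 0.2 RPM, Cdh1 between 0.45 and 1.40 RPM and Krt19 between 2.10 and 15.3 RPM. The keratins Krt8 and Krt18 were between 82.8 and 167 RPM. Skin and muscle lie around a graft. The 5 keratinocyte markers summed to 3.15 and 4.65 RPM in LLC, against 2.20 and 2.25 RPM in LLC-Chem. Only 1 of them, Krt10, had a mean of at least 1 RPM and was tested, and it was not called. Krt5 and Krt14 were at no more than 0.05 RPM. The 5 skeletal muscle markers summed to 2.35 and 3.10 RPM in LLC, against 4.15 and 5.35 RPM in LLC-Chem, with Ckm and Myh4 at 0. Of these 5 markers only Tnnt3, a troponin gene, was tested. It was called higher (1.05 and 1.75 RPM in LLC, against 3.15 and 4.60 RPM in LLC-Chem, adjusted p = 0.0419 by limma). The part of skin or muscle in the results was not tested. In whole tumors, fewer cells of a type and less RNA per cell cannot be told apart.

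Stra6 and Crabp1 were the members with the largest difference between the pools labelled LLC and LLC-Chem, in opposite directions. Both lie on chromosome 9, and the 250 bases before the RefSeq start of each (build GRCm38.p6, plus strand) are shown because they are the sequence next to the starts of these genes. Capitals mark GC boxes, GGGCGG or its reverse complement CCGCCC, a motif chosen after the sequences had been read. The Stra6 stretch lies at chr9:58128838-58129087, inside introns of 3 longer Stra6 transcripts of GENCODE M21, and the Crabp1 stretch lies at chr9:54764498-54764747, outside any gene of that annotation.
Stra6: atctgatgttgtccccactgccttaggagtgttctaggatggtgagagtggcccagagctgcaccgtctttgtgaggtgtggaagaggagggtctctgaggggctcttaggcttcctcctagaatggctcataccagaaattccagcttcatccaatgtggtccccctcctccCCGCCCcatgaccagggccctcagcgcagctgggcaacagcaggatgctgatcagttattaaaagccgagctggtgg
Crabp1: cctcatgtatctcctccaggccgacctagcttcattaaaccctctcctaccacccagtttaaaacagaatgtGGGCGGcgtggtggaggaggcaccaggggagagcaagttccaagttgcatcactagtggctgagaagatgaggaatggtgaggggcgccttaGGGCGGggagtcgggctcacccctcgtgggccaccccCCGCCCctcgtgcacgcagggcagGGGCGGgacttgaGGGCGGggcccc
The Stra6 stretch held 1 GC box and the Crabp1 stretch 5, against at least 1 in 35.7% of the 32851 mouse windows of 250 bases before to 50 after a start. Neither stretch held a half-site of the retinoic acid receptors, searched on either strand as AGGTCA and its variants, which are AGTTCA and then GGGTCA and then GGTTCA, although another of the Stra6 start windows did, as did 43.7% of all windows.

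The element through which retinoic acid receptors are known to bind is a direct repeat of this half-site. With 5 bases between the half-sites it was present in 32 of the 32851 windows, or 0.0974%, and these included Rarb among the members and Cyp26a1 among the other pathway genes. They are shown with 6 bases on each side, the half-sites in capitals. The Rarb stretch lies at chr14:16575507-16575535 on the minus strand, with the repeat from 53 to 37 bases before the RefSeq start, in the 5′ untranslated exon of 2 GENCODE transcripts that start further upstream. The Cyp26a1 stretch lies at chr19:37697770-37697798, with the repeat 32 to 16 bases before the start, and is written on the minus strand, opposite to the gene.
Rarb: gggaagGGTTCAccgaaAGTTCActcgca
Cyp26a1: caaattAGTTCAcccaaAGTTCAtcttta
A window was given for 7 of the 9 members and for 43 of the 59 other pathway genes, and none was given for Crabp2 and Aldh1a3. Repeats with 1 or 2 bases between, present in 0.222% and 0.268% of all windows, were found in no member. These are matches of letters, and binding was not measured.

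Stra6 (ENSMUSG00000032327, chr9:58063788-58153996, plus strand) measured 2.75 and 3.50 RPM in LLC, against 94.2 and 96.8 RPM in LLC-Chem. The means were 3.12 ± 0.53 and 95.5 ± 1.84 RPM (SD, n = 2), a 30.6-fold higher level in LLC-Chem tumors. The lowest LLC-Chem pool stood 26.9-fold above the highest LLC pool, while pools of the same group differed by no more than 1.27-fold. The values rest on 84 and 99 reads in the LLC pools and on 3203 and 3246 reads in the LLC-Chem pools. On the log2(RPM + 0.5) scale used for all differences here, which understates the change of weakly expressed genes, the difference was 4.74.

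The gene for its ligand differed the other way and far less. Rbp4 (ENSMUSG00000024990, chr19:38116629-38125281, minus strand), the plasma carrier of retinol, measured 36.6 and 26.3 RPM in LLC, against 16.2 and 16.1 RPM in LLC-Chem. The means of 31.5 ± 7.24 and 16.2 ± 0.0351 RPM (SD, n = 2) differed by 1.95-fold, a log2 difference of -0.92, and the groups did not overlap. Adipocytes are a known source of RBP4, and of the 6 adipocyte markers 3 were tested and 1, Cfd, was called higher. Their summed level was 28.5 and 20.5 RPM in LLC, against 42.2 and 15.1 RPM in LLC-Chem, and the groups overlapped. Fabp4, which endothelial cells and macrophages also express, measured 25.2 and 17.6 RPM of that sum in LLC, against 19.2 and 8.85 RPM in LLC-Chem. Leaving it out was a choice made after the values were seen. The other 5 markers summed to 3.25 and 2.90 RPM in LLC, against 23.0 and 6.25 RPM in LLC-Chem. Most of the LLC-Chem sums was Cfd, at 15.1 and 4.10 RPM. Only Cfd and Cidec were higher in both LLC-Chem pools, while Adipoq, Plin1 and Lep overlapped between the groups. The part of adipocytes in the level of Rbp4 was not tested.

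Both cytoplasmic binding proteins of retinoic acid were lower in LLC-Chem tumors. Crabp1 (ENSMUSG00000032291, chr9:54764748-54773110, plus strand) measured 69.8 and 35.6 RPM in LLC, against 1.80 and 1.65 RPM in LLC-Chem. The means were 52.7 ± 24.2 and 1.72 ± 0.106 RPM (SD, n = 2), a 30.6-fold lower level and a log2 difference of -4.50. The LLC pools themselves lay 1.96-fold apart, yet the lower of them was still 19.8-fold above the higher LLC-Chem pool. In reads, Crabp1 had 2154 and 1013 in the LLC pools and 61 and 55 in the LLC-Chem pools.

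Crabp2 (ENSMUSG00000004885, chr3:87948666-87953376, plus strand), which delivers retinoic acid to its nuclear receptors, was weakly expressed in all pools. It measured 2.05 and 1.30 RPM in LLC, against 0.55 and 0.85 RPM in LLC-Chem. The means of 1.67 ± 0.53 and 0.70 ± 0.212 RPM (SD, n = 2) gave a 2.39-fold lower level, a log2 difference of -0.85, from 63 and 37 reads against 18 and 28. The groups did not overlap, but the gap between them, 1.53-fold, was no larger than the spread within the LLC group, 1.58-fold. Counted as reads with edgeR, the log2 difference of Crabp2 was -1.24.

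Levels of different genes were compared per length of exon, counted over all annotated exons of a gene together. Shares and ranks of genes depend on this choice. On this measure Crabp1 made up nearly all of the summed Crabp level in LLC tumors, 98.3% and 97.8% in the 2 pools. It made up 84.4% and 76.2% in the LLC-Chem pools. The summed level itself was 88.6 and 45.4 RPM per kb of exon in the LLC pools and 2.66 and 2.70 in the LLC-Chem pools. Crabp1 thus remained the larger part of this family in every pool.

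Of the 3 enzymes that oxidize retinal to retinoic acid, Aldh1a1 and Aldh1a3 were lower in LLC-Chem tumors, and Aldh1a2 overlapped between the groups. Aldh1a3 (ENSMUSG00000015134, chr7:66390890-66427517, minus strand) measured 31.6 and 70.1 RPM in LLC, against 21.1 and 13.0 RPM in LLC-Chem, a 2.98-fold lower mean and a log2 difference of -1.48. Aldh1a1 (ENSMUSG00000053279, chr19:20492715-20643465, plus strand) measured 9.65 and 23.8 RPM in LLC, against 5.40 and 3.60 RPM in LLC-Chem, a 3.72-fold lower mean and a log2 difference of -1.68. The means were 50.9 ± 27.2 and 17.1 ± 5.69 RPM for Aldh1a3 and 16.7 ± 10.04 and 4.50 ± 1.27 RPM for Aldh1a1 (SD, n = 2). For both genes LLC pool 2 was the highest of the 4 and stood 2.22-fold and 2.47-fold above LLC pool 1. The gap between the groups was smaller than that, 1.498-fold for Aldh1a3 and 1.79-fold for Aldh1a1. Without LLC pool 2 the log2 differences were -0.91 for Aldh1a3 and -1.04 for Aldh1a1.

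Aldh1a2 (ENSMUSG00000013584, chr9:71215789-71296243, plus strand) measured 2.0 and 3.0 RPM in LLC, against 5.4 and 2.9 RPM in LLC-Chem. Its higher mean in LLC-Chem tumors, 1.67-fold with a log2 difference of 0.60 rested on LLC-Chem pool 1, and pool 2 lay below the higher LLC pool. Without LLC-Chem pool 1 the log2 difference was 0.20.

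The summed levels of the fibroblast and macrophage lists had the same order of pools as Aldh1a1 and Aldh1a3, but not every marker in them did. The summed level of the 5 fibroblast markers was 11800 and 20340 RPM in LLC, against 8559 and 6869 RPM in LLC-Chem, with 1 marker called higher and 2 lower. Most of that sum came from the collagen genes Col1a1 and Col1a2, which were called lower. The other 3 markers were higher in both LLC-Chem pools, by 1.72-fold for Dcn, 1.97-fold for Lum and 1.62-fold for Pdgfra, and of these Pdgfra was called. That of the 8 macrophage and dendritic cell markers was 1260 and 1587 RPM in LLC, against 1094 and 695 RPM in LLC-Chem, with 2 called lower. Among them Mrc1 overlapped between the groups and Zbtb46 was higher in both LLC-Chem pools, by 1.39-fold, without passing the test. In the sums and in both enzymes LLC pool 2 was highest and LLC-Chem pool 2 lowest. The part of these cells in the level of either enzyme was not tested. Of the 4 mesothelial markers, cells in which Aldh1a2 is known to be abundant, Upk3b, Lrrn4 and Wt1 were at no more than 0.1 RPM in any pool, and the summed level was 4.80 and 1.95 RPM in LLC, against 1.70 and 0.45 RPM in LLC-Chem.

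Summed per length of exon, the Aldh1a family was at 9.68 and 21.3 RPM per kb in the LLC pools and at 8.07 and 4.83 in the LLC-Chem pools. Aldh1a3 was the largest part in every pool, 70.7% and 71.2% in LLC and 56.6% and 58.4% in LLC-Chem. The share of Aldh1a2 was 9.12% and 6.21% in LLC and 29.8% and 26.5% in LLC-Chem, so that it stood above the share of Aldh1a1 in the LLC-Chem pools and below it in the LLC pools.

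Cyp26b1 (ENSMUSG00000063415, chr6:84571414-84593908, minus strand), which degrades retinoic acid, measured 14.5 and 8.10 RPM in LLC, against 4.35 and 6.10 RPM in LLC-Chem. The means of 11.3 ± 4.56 and 5.22 ± 1.24 RPM (SD, n = 2) differed by 2.17-fold, a log2 difference of -1.01. The groups did not overlap, although the gap of 1.33-fold was smaller than the 1.80-fold between the LLC pools. The other enzymes of the family were near the limit of detection, with Cyp26a1 at 0.15 and 0.25 RPM in LLC, against 0.25 RPM in both pools of LLC-Chem, and Cyp26c1 between 0.30 and 0.65 RPM. Neither reached the mean of 1 RPM required for testing. Per length, Cyp26b1 made up 85.9% and 83.6% of the family in LLC and 62.0% and 72.1% in LLC-Chem.

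Rarb (ENSMUSG00000017491, chr14:16430839-16819156, minus strand), the receptor gene that carries the repeat shown above, measured 2.40 and 2.85 RPM in LLC, against 6.20 and 6.60 RPM in LLC-Chem. The means were 2.62 ± 0.318 and 6.40 ± 0.283 RPM (SD, n = 2), a 2.44-fold higher level and a log2 difference of 1.15, and the groups stood 2.17-fold apart. Pools of the same group differed by at most 1.19-fold, so that Rarb, like Stra6, varied little within the groups. The annotation puts 38.4% of its exon bases under exons of Gm48162 or Top2b, where the counting can drop or misplace reads, while no other member has such an overlap. Cyp26a1, which holds the same kind of repeat, did not separate the groups at its level of 4 to 8 reads per pool. RARβ was a minor receptor per length, with 1.02% and 1.14% of the summed Rar level in LLC and 1.87% and 1.92% in LLC-Chem.

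Over the 9 members, 2 were higher in both LLC-Chem pools than in both LLC pools, as were 33.1% of the 13694 genes tested, and 6 were lower in both, as were 39.3%. The remaining member, Aldh1a2, overlapped. A log2 difference of at least 1 in size was found for 6 members, against 12.6% of all genes tested (3.13% higher and 9.52% lower), and the median difference of the members was -0.92, against -0.043. All 9 passed the filter on low values. Since members were chosen with this difference known, these counts describe the list only. With 2 pools against 2, an exact permutation test of a single value could not go below p = 0.33.

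**Figure D1:**
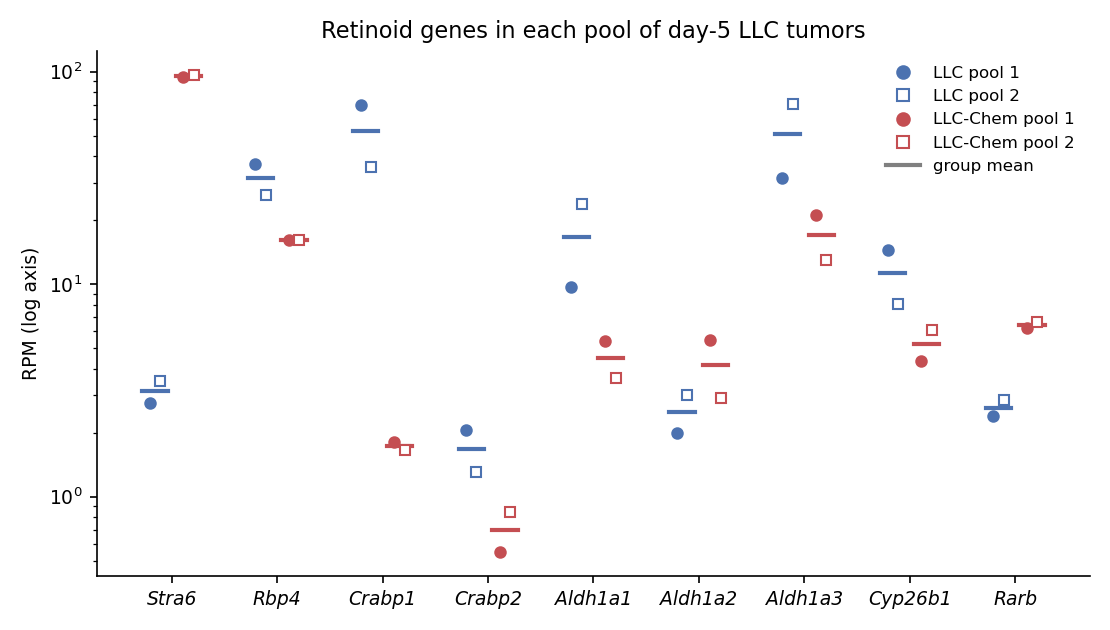
Level of the 9 retinoid genes in each pool, in RPM on a log axis, with LLC pools in blue, LLC-Chem pools in red, pool 1 as filled circles, pool 2 as open squares and the group mean as a bar. Stra6 lies 26.9-fold higher and Crabp1 19.8-fold lower at the nearest pools of the groups, while the Aldh1a2 pools overlap.

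The order of the members by level per kb of exon differed between the groups. In LLC tumors Crabp1 was highest with a mean of 65.7 RPM per kb, followed by Rbp4 at 23.4, Aldh1a3 at 11.01, Aldh1a1 at 3.39, Cyp26b1 at 2.12, Crabp2 at 1.27, Aldh1a2 at 1.10, Stra6 at 0.536 and Rarb at 0.498. Neighbours from Aldh1a1 to Aldh1a2, and the last pair, overlapped between pools. In LLC-Chem tumors Stra6 was highest at 16.4, followed by Rbp4 at 12.04, Aldh1a3 at 3.70, Crabp1 at 2.15, Aldh1a2 at 1.84, Rarb at 1.22, Cyp26b1 at 0.976, Aldh1a1 at 0.911 and Crabp2 at 0.529. Here Crabp1 and Aldh1a2 overlapped, as did Cyp26b1 and Aldh1a1. Stra6 moved from the eighth place to the first, and Crabp1 from the first to the fourth.

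**Figure D2:**
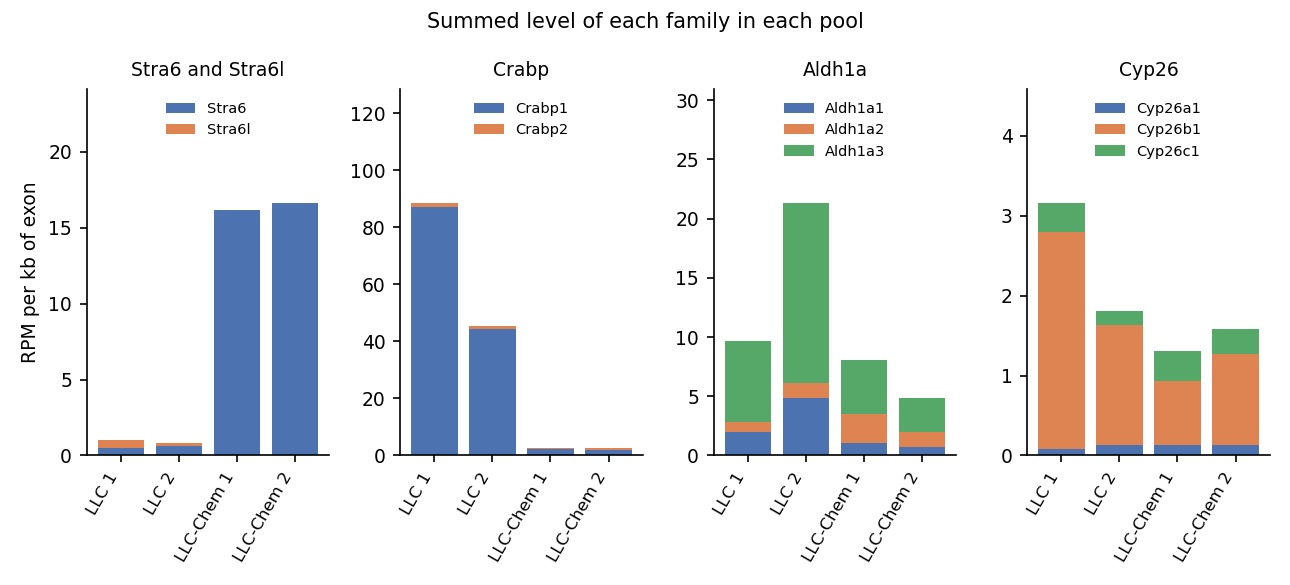
Summed level of 4 families in each pool, in RPM per kb of exon on linear axes that start at 0, with each family member as a colored part of the bar. The Crabp bars of the LLC pools consist almost wholly of Crabp1, the bars of the RBP4 receptors in the LLC-Chem pools are 99.8% Stra6, and Aldh1a3 is the largest Aldh1a part in every pool.

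The other genes of the pathway were listed by their known role, 59 in all, of which 35 had a mean of at least 1 RPM and were tested with limma across all genes. At an adjusted p under 0.05, 5 were called higher in LLC-Chem, beside 9.54% of all genes tested, and 6 were called lower, beside 13.5%. The remaining 24 were not called, 7 genes of the list were at 0 in every pool, and the median log2 difference was -0.01. These p-values measure only the spread between these pools. Whether the 11 calls hold with any 1 pool left out could not be tested, since a group then holds a single pool. No log2 difference among the 11 changed direction in those fits.

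Both uptake and transport genes tested fell. Stra6l, the other membrane receptor of RBP4, had 5.30 and 2.30 RPM in LLC, against 0.25 RPM in both pools of LLC-Chem. It fell by 2.43 on the log2 scale (standard error 0.39, adjusted p = 0.0179 by limma), opposite to Stra6. The pseudocount makes this smaller than the 15.2-fold ratio of the means. On the recovered reads edgeR gave a log2 difference of -3.92 (adjusted p = 0.0167 by edgeR). The LLC pools of Stra6l lay 2.30-fold apart, and without LLC pool 1 its difference on the log2(RPM + 0.5) scale was -1.90. Per length, Stra6 was 46.0% and 71.4% of the summed level of both receptors in the LLC pools and 99.8% in each LLC-Chem pool, and the sum itself was 1.02 and 0.84 RPM per kb in LLC and 16.2 and 16.6 in LLC-Chem. Fabp5, which can carry retinoic acid to the nuclear receptor PPARδ, fell from 171 and 155 to 73.4 and 39.1 RPM (log2 difference -1.59, standard error 0.29, adjusted p = 0.0225 by limma). Both genes, like Crabp1 and Rbp4, had their highest value in LLC pool 1.

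The 6 endothelial markers of the list followed the same order of pools as Crabp1, Rbp4 and Fabp5. For Rbp4 (16.2 and 16.1 RPM) and Crabp1 (61 and 55 reads) the LLC-Chem pools were nearly equal, so their order within that group carries little. All 6 (Pecam1, Cdh5, Kdr, Tie1, Emcn and Robo4) were called lower, with a summed level of 215 and 147 RPM in LLC, against 48.8 and 26.4 RPM in LLC-Chem. Their part in the lower level of the retinoid genes was not tested.

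Among genes of retinyl esters and carotenoids, 2 of the 3 tested fell. Scarb1, a scavenger receptor that takes up carotenoids and lipoprotein cholesterol, fell from 58.1 and 56.9 to 33.0 and 24.0 RPM (log2 difference -1.02, adjusted p = 0.0191 by limma). Bco2, which cleaves carotenoids, fell from 5.15 and 9.50 to 2.75 and 2.50 RPM (log2 difference -1.27, adjusted p = 0.0407 by limma). Lrat, the enzyme that stores retinol as esters, was between 0.05 and 0.30 RPM and was not tested.

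None of the 12 retinol and retinal oxidoreductases tested was called by limma, and the adjusted p closest to the threshold was 0.0675, for Dhrs9, at an unadjusted p of 0.0197. edgeR and DESeq2 on the recovered reads also called 0, and the number with an unadjusted p under 0.05 was 1 by limma, 3 by edgeR and 1 by DESeq2. Dhrs9 was singled out after its value was seen. Rdh10, which oxidizes retinol to retinal, measured 85.5 and 70.4 RPM in LLC, against 95.4 and 90.0 RPM in LLC-Chem, a log2 difference of 0.26 (adjusted p = 0.182 by limma). Dhrs3, which reduces retinal back to retinol, measured 69.3 and 99.2 RPM in LLC, against 88.7 and 89.9 RPM in LLC-Chem, a log2 difference of 0.11 (adjusted p = 0.676 by limma). Without LLC pool 1 the difference of Dhrs3 was -0.15. The groups overlapped for Dhrs3 and not for Rdh10.

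Of the 11 receptors and cofactors tested, 3 rose and 1 fell. Rarg, the most abundant retinoic acid receptor per length in every pool with 72.3% to 76.9% of the family, rose from 138 and 148 to 201 and 214 RPM (log2 difference 0.54, standard error 0.10, adjusted p = 0.024 by limma). Rara measured 52.0 and 53.5 RPM in LLC, against 63.2 and 60.3 RPM in LLC-Chem, a log2 difference of 0.23 (adjusted p = 0.142 by limma). The partner receptors gave log2 differences of -0.28 for Rxra (adjusted p = 0.0816) and 0.22 for Rxrb (adjusted p = 0.139) by limma, and Rxrg was at no more than 0.2 RPM. The coactivators Ncoa1 and Ncoa2 rose by log2 differences of 0.51 (adjusted p = 0.049 by limma) and 0.44 (adjusted p = 0.0475 by limma), and Nrip1, a corepressor that retinoic acid is known to induce, fell by 0.50 (adjusted p = 0.0406 by limma). With eBayes fitted without a trend, Rarg, Ncoa1, Ncoa2, Nrip1, Bco2 and Gprc5a were no longer called, at adjusted p of up to 0.0826 by limma. Replicate number as a block ended the calls of Rarg, Ncoa1, Ncoa2, Nrip1 and Bco2, at adjusted p of up to 0.105 by limma.

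Genes known to respond to retinoic acid did not share a direction. Meis1, a homeobox factor, rose from 24.2 and 20.2 to 47.7 and 50.5 RPM (log2 difference 1.13, standard error 0.13, adjusted p = 0.0126 by limma), and Meis2 rose from 16.6 and 19.1 to 27.4 and 31.9 RPM (log2 difference 0.71, adjusted p = 0.029 by limma). Gprc5a, a retinoic acid-induced orphan receptor, fell from 32.4 and 17.2 to 9.40 and 8.70 RPM (log2 difference -1.34, adjusted p = 0.0344 by limma). The other 4 tested were not called, and Rarres2, described at the start, is one of them.

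**Figure D3:**
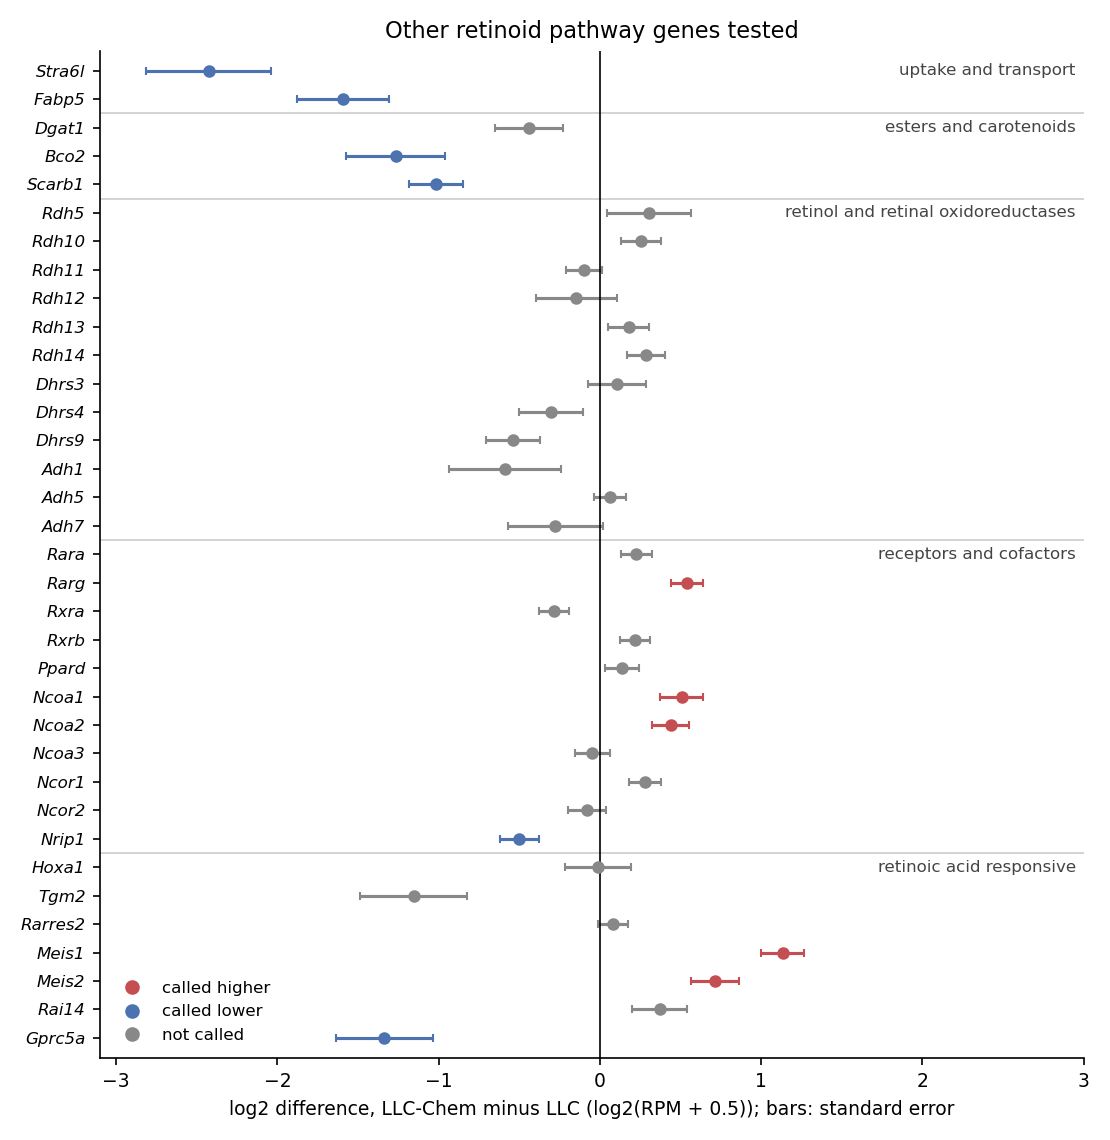
Difference between LLC-Chem and LLC of the 35 other retinoid pathway genes tested, on the log2(RPM + 0.5) scale with standard errors from limma, grouped by role. The 5 genes called higher are in red, the 6 called lower in blue and the 24 not called in grey, and the 12 oxidoreductases are all grey.

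The genes whose pattern over the 4 pools was most like that of a member were found by the distance between centred log2(RPM + 0.5) values. For Stra6 they were Ptn at a distance of 0.36, Enpp2 at 0.77 and Map2 at 1.03, and Ptn, the gene of the growth factor pleiotrophin, measured 19.4 and 22.7 RPM in LLC, against 457 and 442 RPM in LLC-Chem. For Crabp1 they were Tnn at 0.57, Ccr6 at 0.67 and Cxcl3 at 0.70. Tnn, which encodes the matrix protein tenascin-N, measured 25.2 and 15.6 RPM in LLC, against 0.65 and 0.85 RPM in LLC-Chem. The nearest genes of Stra6 and Crabp1 lay farther away than those of the other members.
Closest to Rarb were Ap3b2 at 0.03, Tmem191c at 0.06 and Gm43300 at 0.06. Aldh1a1 was closest to Plpp3 at 0.09, Gdf10 at 0.15 and Krt19 at 0.16, and Aldh1a3 to Rcan2 at 0.10, Tek at 0.14 and Irx1 at 0.15. These genes shared the high value in LLC pool 2, for example Tek, an endothelial receptor outside the marker list, with 25.1 and 53.2 RPM in LLC, against 17.1 and 11.3 RPM in LLC-Chem. Aldh1a2 was closest to Fmo2 at 0.16, F13a1 at 0.18 and Mamdc2 at 0.22, Cyp26b1 to Gm16340 at 0.09, Tacr1 at 0.11 and Trim66 at 0.12, Rbp4 to Slfn9 at 0.05 and Fetub at 0.07, and Crabp2 to Gbp3 at 0.04, Unc93a at 0.05 and Syt7 at 0.08. With 4 pools many genes have nearly the same pattern, and these names are a description only.

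The genes next to Stra6 and Crabp1 on chromosome 9 did not share the size of their difference. The 10 nearest tested genes to Stra6, whose starts lie within 355.2 kb, had log2 differences from -1.45 for Loxl1 to 2.01 for Islr, with a median of -0.19, against 4.74 for Stra6. Those nearest to Crabp1, within 384.1 kb, ranged from -2.58 for Acsbg1 to 0.16 for Ireb2, with a median of -0.66, against -4.50 for Crabp1. Around Rarb the range was from -0.29 for Oxsm to 0.57 for Slc4a7. Of the 9 members, 5 lay outside the range of their 10 neighbours, which were these 3 with Aldh1a1 and Aldh1a3, and 4 lay inside it, which were Rbp4, Crabp2, Aldh1a2 and Cyp26b1.

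**Figure D4:**
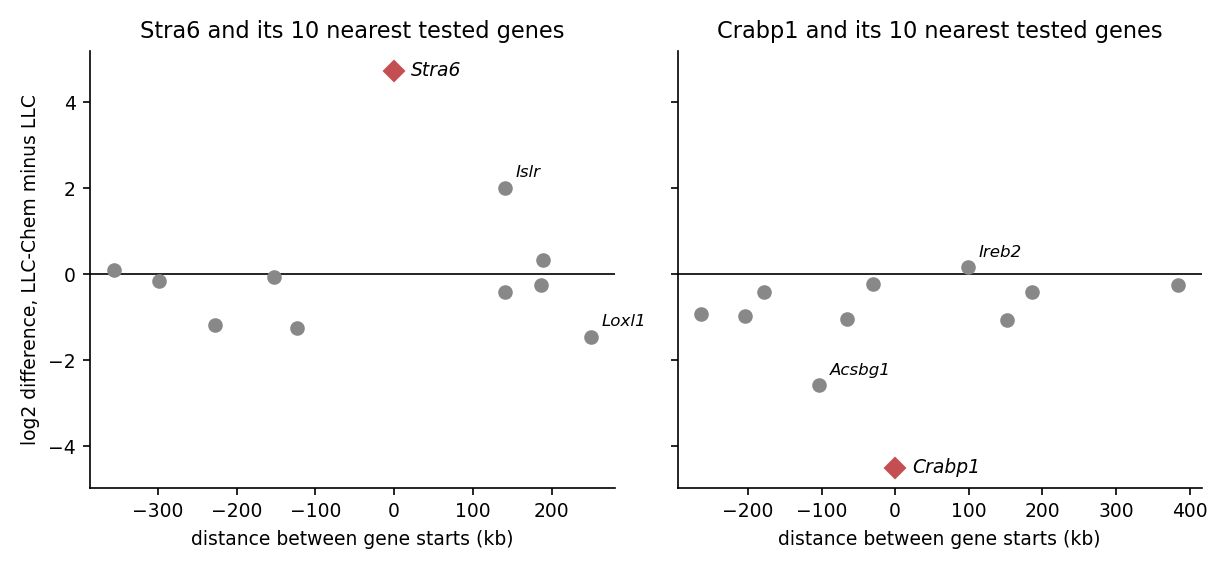
Log2 difference between LLC-Chem and LLC, on the log2(RPM + 0.5) scale, of Stra6 (left) and Crabp1 (right), drawn as diamonds, and of the 10 nearest tested genes to each, drawn as circles, against the distance between gene starts in kb. Stra6 at 4.74 lies above all of its neighbours and Crabp1 at -4.50 below all of its own.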

How the data were processed

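RNA-seq was performed on pools of LLC and LLC-Chem tumors, with groups and replicate numbers taken from the sample labels. The authors prepared TruSeq RNA libraries, used STAR to map paired-end reads to GRCm38.p4/mm10 and HTSeq to count them per gene of Ensembl 84, and deposited RPM for 47729 genes. Tool versions and the use of strand are not given in the sources used here, so reads of overlapping genes on opposite strands may be mixed. The deposited RPM were whole multiples of 1 step in 100% of values above 0 (within 0.1 step), so the counts had probably been rescaled to 20000000 reads and rounded up. The total of each library was estimated in steps of 10000 reads, and reads were recovered to within about 1 read. Intervals and floors cover counting error only.

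Differences were tested two-sided on log2(RPM + 0.5) in R 4.3.3, using eBayes with a trend in limma 3.58.1, for the 13694 genes whose mean reached 1 RPM. P-values were adjusted by the method of Benjamini and Hochberg, and 0.05 was the limit for a call. On simulated counts the test recovered most of the changes put in, more of the large than of the small. With spreads that varied from gene to gene it also called more unchanged genes than its threshold states, so that calls near the threshold are uncertain. Alternatives were other pseudocounts, scalings and filters, eBayes without trend, replicate number as a block, edgeR 4.0.16 and DESeq2 1.42.0 on the recovered reads, and leaving out each pool. The block with crossed numbers was added after the data were seen.

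The members and lists were chosen with earlier results of these data known. The genes named are the members, the other pathway genes called by limma with 12 named in any case, the markers, and for each member the 3 genes with the most similar pattern. Results for 2 genes that this rule names are not reported here, and 1 of them was left out of the pathway list and its counts. Coordinates and exon lengths are from GENCODE M21 (GRCm38), which holds 47224 (98.9%) of the 47729 identifiers, and promoter windows are from RefSeq on GRCm38.p6, matched by symbol. Values were summarised in Python 3.11.15 (pandas 2.3.3, numpy 2.4.6) and drawn with matplotlib 3.10.9.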

Additional observations from a re-analysis of the deposited data

How the results depend on the processing

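No member changed direction under any of the settings tried, with log2 differences from 4.55 to 4.99 for Stra6, from -4.98 to -4.02 for Crabp1 and from 1.03 to 1.33 for Rarb. The widest range was that of Aldh1a1, from -2.31 to -1.04. The number of members with a log2 difference of at least 1 in size was between 5 and 8. Of the counts of called genes, those over all genes (1306 higher and 1848 lower) and over the other pathway genes (5 higher and 6 lower) moved most. With no filter on low values they were 1 and 0 over all genes (3394 and 4003 at an unadjusted p under 0.05) and 0 and 0 in the pathway (11 and 10 unadjusted). Without trend in eBayes the pathway counts were 2 and 3. With any 1 pool left out a group holds a single pool, and only the log2 differences of those fits are given. On recovered reads edgeR called 1550 higher and 1598 lower, of which 5 and 6 were in the pathway, and DESeq2 called 1875 and 2271, of which 5 and 7 were. The cause of these changes in the counts was not tested. The difference of Dhrs3 ran from -0.151 (without LLC pool 1) to 0.363 (without LLC pool 2) with a pool left out.

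The groups share replicate numbers, but same-numbered pools did not deviate together (correlation -0.1405 across genes), and nothing in the labels pairs them. With the replicate number as a block, limma called 549 genes higher and 1064 lower, with 2 and 4 in the pathway. With the numbers crossed it called 1579 and 2320, with 6 and 7 in the pathway. With 2 pools per group the spread between pools limits the precision of genes of a few RPM or more, and counting limits those near 3 reads, such as Cyp26a1.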
